A study of Mus musculus with 5 samples.

Results

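Chemokines are small secreted proteins that steer leukocytes by binding G protein-coupled receptors. The 7 chemokine genes treated here are Xcl1, Ccl1, Ccl3, Ccl4, Ccl5, Ccl9 and Cxcl10, picked by name from the 23337 genes listed. All of them were detected in every library and passed the filter on low counts. The transcripts were measured by RNA sequencing in CD8+ T cells sorted from mouse tumors, in 3 Control IgG libraries and 2 anti-PD-L1 libraries. All 5 libraries came from C57BL/6J CD45.1 OT-I cells, which carry a transgenic receptor for a peptide of ovalbumin. The donors were 6 to 12 weeks old, and the labels do not give the strain or age of the recipients. The cells were activated with plate-bound anti-CD3 and anti-CD28, kept in interleukin-2 to day 5 or 6, and injected into mice carrying B16-OVA melanomas. The recipients then received 200 µg of anti-PD-L1 or of control anti-KLH rat IgG2b on days 3 and 6 after transfer. PD-L1 binds PD-1, an inhibitory receptor of T cells. Live CD8+ CD45.1+ cells were sorted on day 8 or once a tumor measured 1.2 cm, and mice of 1 group were pooled for each library. The labels do not say which mice went into which pool, so the spread given below is that between pools. The controls are called C1, C2 and C3 and the anti-PD-L1 libraries P1 and P2, by replicate number.

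Activated CD8+ T cells secrete several chemokines soon after their receptor is engaged, and these draw in further cells. Xcl1, or lymphotactin, is the ligand of XCR1, a receptor of cross-presenting dendritic cells. Ccl1 binds CCR8. Ccl3 and Ccl4, the macrophage inflammatory proteins 1-alpha and 1-beta, attract monocytes and T cells, and Ccl3 binds CCR1. Ccl5, or RANTES, binds CCR1 and CCR3 and attracts T cells and eosinophils. Ccl9 binds CCR1 and is known mainly from macrophages and related myeloid cells. Cxcl10 is an interferon-induced ligand of CXCR3, a receptor of activated T cells.

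The genes lie at 3 places in the mouse genome (GRCm38, GENCODE vM21 transcripts). Xcl1 has 3 exons on chromosome 1 from 164931644 to 164935527, on the minus strand. Cxcl10 has 4 exons on chromosome 5 from 92346638 to 92348882, also on the minus strand. The CC chemokines lie on chromosome 11, where Ccl1 spans 82176657 to 82179812. Ccl5 follows 1345965 bases further on, from 83525778 to 83530518, then Ccl9 from 83572919 to 83578636, Ccl3 from 83647844 to 83649355 and Ccl4 from 83662584 to 83664683. Ccl3 and Ccl4 lie 13228 bases apart on opposite strands, with no listed chemokine between them. Cxcl10 lies within Art3, a gene on the other strand that had 0 to 16 counts per library. Xcl1 overlaps the noncoding gene Gm20743 on the other strand, which the files do not list. The library chemistry does not mark strand, so reads of overlapping genes on opposite strands are not told apart.

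The stretches just before the start sites of 4 members are shown because the comparisons turn on these genes. Xcl1 had the widest spread, Ccl1 the largest fold change, Ccl3 the smallest spread among these 4, and Cxcl10 is the interferon-induced member. Each is the 250 bases upstream of the RefSeq start site (GRCm38.p6), read 5′ to 3′ on the minus strand, which is the gene's own. Capitals mark matches, on either strand, to kappaB-like letters (GGG and TTCC with any 3 bases between), an interferon response element (TTTC and TTTC with any 2 bases between), AP-1 (TGANTCA), CRE (TGACGTCA), a T-box site (GGTGTGA) and a RUNX site (TGTGGT), and on the gene strand to a TATA box (TATAAA). The coordinates are chr1:164935523-164935772 for Xcl1, chr11:82179813-82180062 for Ccl1, chr11:83649379-83649628 for Ccl3 and chr5:92348890-92349139 for Cxcl10.
Xcl1: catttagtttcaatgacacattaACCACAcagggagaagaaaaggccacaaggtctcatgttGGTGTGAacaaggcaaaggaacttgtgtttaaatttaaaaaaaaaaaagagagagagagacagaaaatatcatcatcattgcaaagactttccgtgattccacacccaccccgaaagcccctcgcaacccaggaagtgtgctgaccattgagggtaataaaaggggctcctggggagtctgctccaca
Ccl1: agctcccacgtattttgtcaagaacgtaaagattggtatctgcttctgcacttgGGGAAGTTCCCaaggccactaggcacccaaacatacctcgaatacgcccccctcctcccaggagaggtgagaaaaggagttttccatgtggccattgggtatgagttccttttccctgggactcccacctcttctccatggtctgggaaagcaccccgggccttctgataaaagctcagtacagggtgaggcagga
Ccl3: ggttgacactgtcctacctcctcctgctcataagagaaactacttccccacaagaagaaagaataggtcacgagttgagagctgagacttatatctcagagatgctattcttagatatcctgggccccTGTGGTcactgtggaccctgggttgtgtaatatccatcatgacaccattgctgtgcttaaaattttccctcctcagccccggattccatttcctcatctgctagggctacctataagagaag
Cxcl10: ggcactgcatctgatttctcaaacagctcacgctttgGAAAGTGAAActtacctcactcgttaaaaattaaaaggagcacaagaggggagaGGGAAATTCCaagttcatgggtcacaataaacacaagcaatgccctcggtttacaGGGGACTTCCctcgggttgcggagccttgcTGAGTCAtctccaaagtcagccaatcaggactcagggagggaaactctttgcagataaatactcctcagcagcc
Cxcl10 held 1 interferon response element match, 2 kappaB-like matches and 1 AP-1 match. Ccl1 held a kappaB-like match on each strand, and these overlap in 1 near-palindrome. Xcl1 held a T-box site and a RUNX match, and Ccl3 a RUNX match. Among all 32851 promoter windows of this length, 4.65% held the kappaB-like letters, 2.98% the interferon response element, 6.75% AP-1, 3.33% the T-box site and 14.05% the RUNX site. The interferon-gamma activated site (TTC and GAA with any 3 bases between), in 7.02% of windows, CRE, in 1.55%, and the TATA box, in 7.59%, had no match in these 4. The NFAT core (GGAAA), found in 55.57% of windows, was searched too, matched in all 4 and is not capitalised. The matches are letters in a window and were not tested as sites. The Ccl9 window was searched as well and is not shown. It held a kappaB-like match, an AP-1 match and a TATA box. Ccl4 and Ccl5 had no entry among the promoter sequences.

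The depth was 9985943 to 12830485 counts assigned to genes per library, and the 7 chemokines together took 0.358% to 0.570% of them. C1 and P1 stood apart from the rest, with 11696 and 11977 genes detected against 13564 to 13801 in the other 3 libraries, so results are given with and without them. The 10 markers of CD8+ T cells were present in every library, with summed levels of 7924 to 8883 CPM in controls and 8554 to 9873 CPM after anti-PD-L1. CPM is a count scaled to a common library total, by total counts alone for marker sums and with TMM factors for the levels of single genes unless said otherwise. Markers of other cells were far lower. The 13 macrophage and monocyte markers summed to 84.7 to 208.7 CPM in controls and 89.5 to 133 CPM after anti-PD-L1. The 10 dendritic cell markers summed to 152.8 to 344.6 and 127.8 to 275.2 CPM. The 8 natural killer cell markers summed to 98.9 to 132 and 122.8 to 279.9 CPM, mostly from Klre1 and Fcer1g, with Klra4 and Klra8 at 0 in every library and Ncr1 at no more than 0.234 CPM. The melanoma markers ranged from 4.03 to 299.9 CPM in controls and from 40.1 to 103 CPM after anti-PD-L1.

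The chemokine transcripts spanned a wide range of levels, and the order of the genes differed between groups only for neighbours with overlapping ranges. To compare genes, CPM scaled by TMM factors was divided by the length in kb of the longest GENCODE coding transcript with a RefSeq match. On this scale of CPM per kb, Xcl1 and Ccl4 were the most abundant in controls, at 2422 ± 1019 (SD, n = 3) and 2172 ± 469 (SD, n = 3). Ccl5 followed at 1631 ± 748 (SD, n = 3), Ccl3 at 981 ± 195 (SD, n = 3) and Ccl1 at 492 ± 122 (SD, n = 3). Ccl9 at 19.8 ± 9.20 (SD, n = 3) and Cxcl10 at 15.6 ± 3.44 (SD, n = 3) lay far below. The control ranges of Xcl1 and Ccl4, of Ccl4 and Ccl5, of Ccl5 and Ccl3, and of Ccl9 and Cxcl10 overlapped. Within single libraries Ccl4 was above Ccl5, and Ccl5 above Ccl3, in 3 of 3 controls, whereas Xcl1 was above Ccl4 in 2 of 3 and Ccl9 above Cxcl10 in 1 of 3. Those of Ccl3 and Ccl1, and of Ccl1 and Ccl9, did not overlap. After anti-PD-L1 the order was Ccl4 at 2595 ± 59.0 (SD, n = 2), Xcl1 at 1918 ± 1200 (SD, n = 2), Ccl5 at 1821 ± 60.9 (SD, n = 2), Ccl3 at 1127 ± 114 (SD, n = 2) and Ccl1 at 699 ± 219 (SD, n = 2). Cxcl10 at 18.6 ± 8.61 (SD, n = 2) and Ccl9 at 15.5 ± 3.50 (SD, n = 2) were again lowest, with overlapping ranges. The ranges of Ccl4 and Xcl1, and of Xcl1 and Ccl5, overlapped as well, and those of Ccl5, Ccl3 and Ccl1 did not. Among 9880 tested genes with a length, Ccl4 ranked between 20 and 40 in the 5 libraries, Ccl5 between 39 and 79 and Ccl3 between 80 and 103. Xcl1 ranked 15, 22 and 54 in C1, C2 and C3, and 94 and 17 in P1 and P2.

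**Figure D1:**
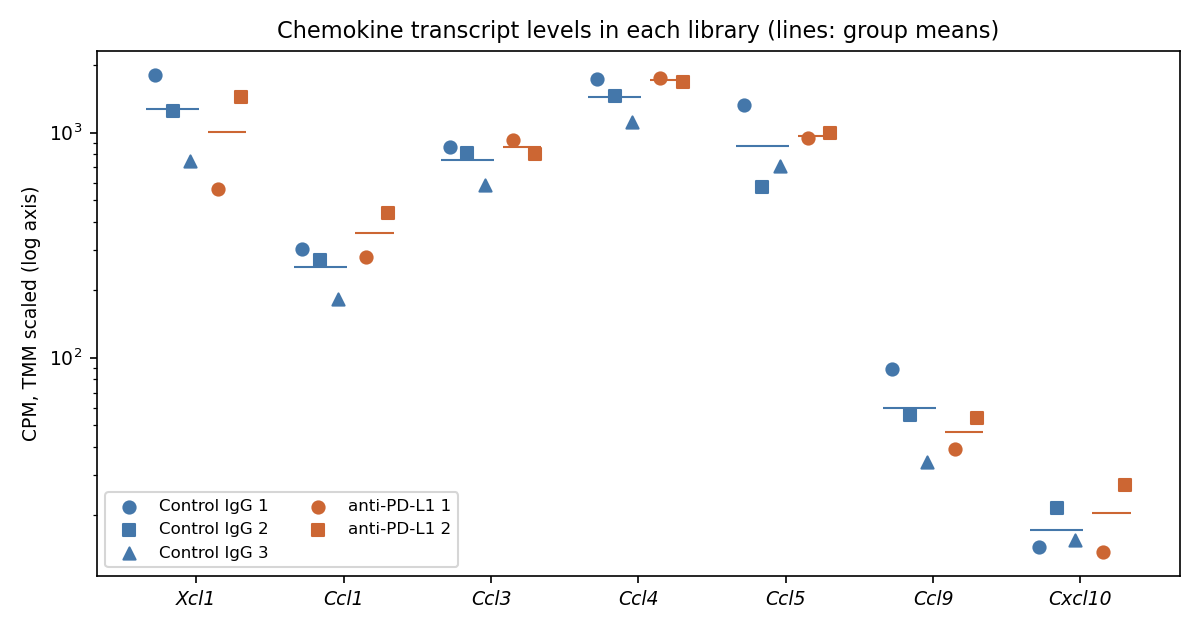
TMM-scaled CPM (log axis) of the 7 chemokines in each library, with Control IgG in blue, anti-PD-L1 in orange, and marker shapes for the replicate number. Short lines are group means, and for Ccl4 they lie at 1433 CPM in controls and 1712 CPM after anti-PD-L1.

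The main comparison asked whether these transcripts differ after PD-L1 blockade, and none of the 7 passed the test. In edgeR's quasi-likelihood test 0 of 7 members passed an adjusted p of 0.05, as did 0 of all 11299 genes tested (0%), and all members had an adjusted p of 0.9999. None of the 7 had an unadjusted p under 0.05, against 241 of all genes (2.13%). DESeq2 and limma-voom also called 0 of the 7, while DESeq2 called 4 of 15088 genes (0.0265%). The fold change was above 0 for 5 of the 7, against 48.1% of all genes tested, with a median of 0.20 on the log2 scale against -0.015. Of the 7, 0 had both P1 and P2 above every control, where 7.74% of all genes did so, and 0 had both below, where 9.58% did so. Divided by library totals only, or scaled by upper quartile factors, Ccl4 alone had both above every control, 1 of the 7, where 6.94% and 9.18% of all genes did so. The 95% intervals were wide enough to hold a rise or a fall for each member, so a missed threshold does not show equal levels.

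**Figure D2:**
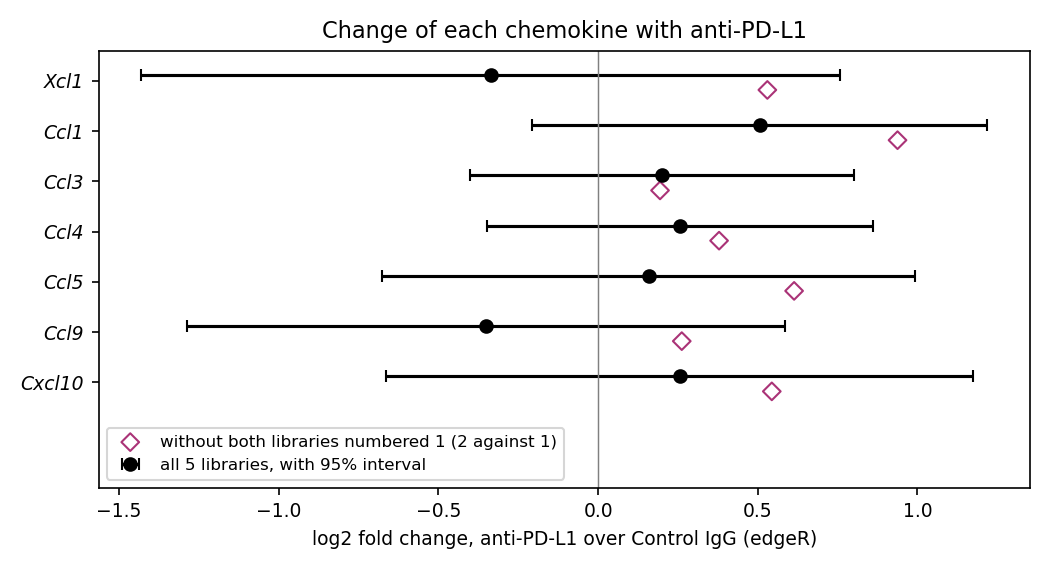
Log2 fold change of each chemokine, anti-PD-L1 over Control IgG, from edgeR with all 5 libraries (filled circles, bars are 95% intervals) and without both libraries numbered 1 (open diamonds, 2 controls against 1 anti-PD-L1 library). Every interval crosses 0, and the diamonds of Xcl1 and Ccl9 lie on the other side of 0 from the circles.

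Xcl1, the dendritic cell attractant, had the widest spread of the 7. It stood at 1810, 1246 and 744 CPM in C1, C2 and C3, and at 559 and 1447 CPM in P1 and P2. The 2 libraries numbered 1 held the highest and the lowest value, and P2 lay within the controls. The highest level was 3.24 times the lowest, and the anti-PD-L1 libraries differed from each other by 2.59 times. The difference between those 2 libraries was larger in size than that of 85.2% of tested genes. The log2 fold change was -0.34 ± 0.48 (SE), with a 95% interval from -1.43 to 0.76. It was 0.01 without C1, 0.19 without P1 and 0.53 without both. It moved the other way without P2, to -1.15 at an edgeR adjusted p of 0.514, and without C3, to -0.61, and was -0.74 with the replicate number as a block.

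Ccl1, the CCR8 ligand, had the largest fold change and the smallest p of the members. It was present at 304, 273 and 183 CPM in the controls and at 280 and 439 CPM after anti-PD-L1. P2 was above all controls and P1 was inside their range. The log2 fold change was 0.51 ± 0.31 (SE), with a 95% interval from -0.21 to 1.22 and an unadjusted p of 0.14, which placed the gene 1034th of 11299. Leaving out 1 library gave values from 0.17 without P2 to 0.79 without P1. Without both libraries numbered 1 it was 0.94, at an adjusted p of 0.310. In that fit P2 stood alone against C2 and C3, so the spread is that of the controls.

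Ccl3 and Ccl4, the macrophage inflammatory proteins encoded side by side, were the steadiest members. Ccl3 stood at 865, 808 and 583 CPM in the controls and at 925 and 801 CPM after anti-PD-L1. Ccl4 stood at 1729, 1460 and 1111 CPM in the controls and at 1740 and 1685 CPM after anti-PD-L1. For both genes C3 was lowest of all, and with TMM factors P1 was just above the highest control and P2 lay within the controls. That placing depended on the scaling. Over library totals Ccl4 stood at 1561, 1567 and 1177 CPM in the controls and at 1621 and 1763 CPM after anti-PD-L1, with both above every control. Ccl3 stood at 781, 867 and 617 CPM in the controls and at 862 and 838 CPM after anti-PD-L1 on that scale, with both inside the control range. The log2 fold change was 0.20 ± 0.26 (SE) for Ccl3, with a 95% interval from -0.40 to 0.80. It was 0.26 ± 0.26 (SE) for Ccl4, with an interval from -0.35 to 0.86. As folds these intervals run from 0.757 to 1.74 for Ccl3 and from 0.786 to 1.81 for Ccl4. Neither changed sign in any alternative, but both fell close to 0 without C3, at 0.04 and 0.10.

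The CPM of Ccl4 was 2.00, 1.81 and 1.91 times that of Ccl3 in the controls and 1.88 and 2.10 times after anti-PD-L1. The highest of these ratios was 1.16 times the lowest, whereas the ratio of Xcl1 to Ccl4 varied 3.26 times, from 0.321 in P1 to 1.05 in C1. The ratio of Xcl1 to Ccl1 fell to 2.00 in P1, against 4.07 to 5.96 in the controls and 3.29 in P2. These ratios use levels not divided by length and were described without a test.

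Ccl5, a T cell attractant, varied mostly among the controls. It stood at 1320, 571 and 712 CPM in C1, C2 and C3 and at 946 and 992 CPM after anti-PD-L1. Both anti-PD-L1 libraries lay inside the control range, close to each other. The control coefficient of variation was 45.9%, against 19.9% for Ccl3 and 21.6% for Ccl4. It was as wide for Ccl9, at 46.4%, and nearly so for Xcl1, at 42.1%. The log2 fold change was 0.16 ± 0.36 (SE), with a 95% interval from -0.68 to 0.99. It was -0.07 without C2, 0.59 without C1 and 0.61 without both libraries numbered 1.

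Ccl9, a chemokine known mainly from myeloid cells, was present at 89.1, 55.5 and 34.3 CPM in the controls and at 39.3 and 54.2 CPM after anti-PD-L1. Both anti-PD-L1 libraries lay within the control range. The log2 fold change was -0.35 ± 0.41 (SE), with a 95% interval from -1.29 to 0.59. It was 0.06 without C1 and 0.26 without both libraries numbered 1. Divided by library totals only, Ccl9 stood at 80.4, 59.6, 36.3, 36.6 and 56.7 CPM in the order above. The 13 macrophage and monocyte markers summed to 208.7, 148.8, 84.7, 89.5 and 133 CPM in the same libraries, so the sum and Ccl9 had the same order of libraries. Of the single markers, 0 of 13 had that whole order and 8 were highest in C1, as Ccl9 was. The share of all genes highest in C1 is not given. Lyz2 and C1qb, the most abundant, were lowest in P1, and the part of these markers in the level of Ccl9 was not tested. In pooled RNA, fewer cells of a type and less RNA per cell cannot be told apart.

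Cxcl10, the interferon-induced CXCR3 ligand, rested on the fewest counts, 148 to 363 per library, for which the counting error is 5.25% to 8.22%. It stood at 14.4, 21.4 and 15.5 CPM in the controls and at 13.7 and 27.0 CPM after anti-PD-L1. P1 lay just below every control and P2 above every control. The log2 fold change was 0.26 ± 0.40 (SE), with a 95% interval from -0.66 to 1.18. It was -0.29 without P2 and 0.66 without P1.

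**Figure D3:**
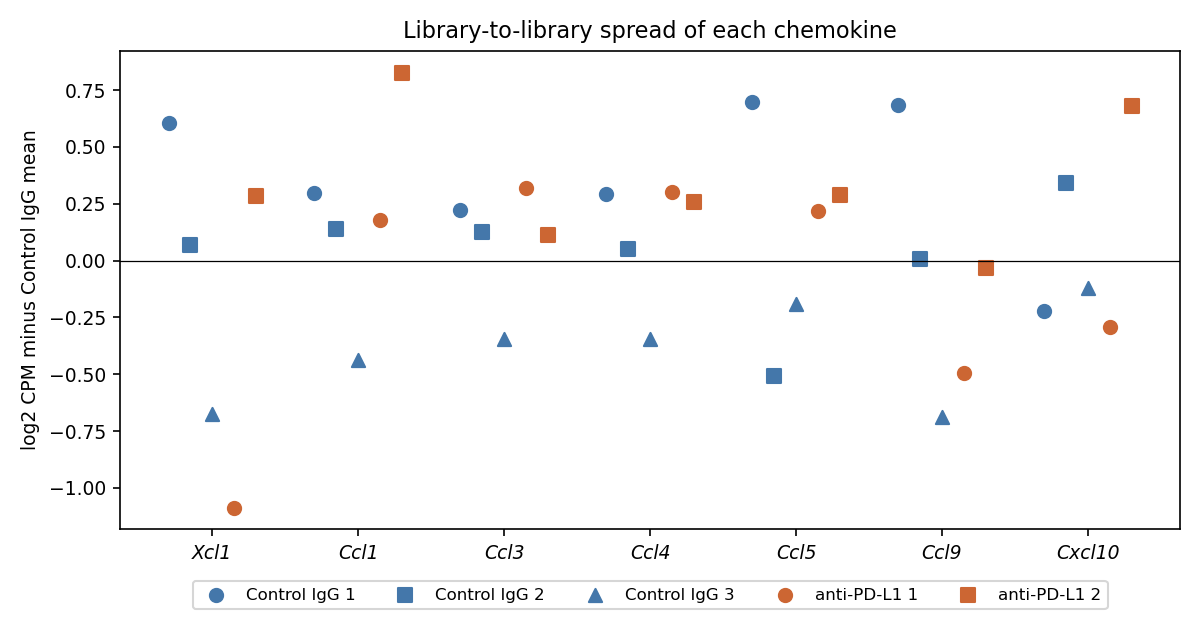
Log2 CPM (prior count 2) of each chemokine in each library minus the mean of the 3 Control IgG libraries. C3 (blue triangles) is the lowest control for 5 of the 7 genes, and P1 (orange circles) runs from -1.09 for Xcl1 to 0.32 for Ccl3. The share of all genes with C3 as the lowest control is not given.

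The libraries differed across the set as well as within genes. C3 was the lowest of all 5 libraries for Ccl1, Ccl3, Ccl4 and Ccl9, and the lowest control for Xcl1 too. The share of all genes that were lowest in C3 is not given. On the log2 scale the median member was at -0.35 from its control mean in C3, against 0.027 for all genes tested. The 7 chemokines summed to 6131, 4435 and 3382 TMM-scaled CPM in the controls and to 4502 and 5445 CPM after anti-PD-L1. The mix differed most in P1, where Xcl1 made up 12.4% of the summed CPM against 22.0% to 29.5% in the other libraries, and Ccl4 made up 38.6% against 28.2% to 32.9%. With both libraries numbered 1 left out, P2 lay above both remaining controls for 5 of the 7, where 32.1% of all genes did so, and below both for 0, where 31.7% did so. The exceptions, Ccl3 and Ccl9, lay between the controls.

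Patterns over the 5 libraries were compared by the root mean square difference of log2 CPM, with each gene centred on its own mean. Ccl3 and Ccl4 were the closest pair of members, at 0.075. Next came Ccl1 and Ccl4 at 0.25 and Xcl1 and Ccl9 at 0.30, while Ccl5 and Cxcl10 at 0.63 were farthest apart. Close matches were found for other genes too. Of 7693 other genes whose log2 CPM averaged 3 or more, 8 were closer to Ccl3 than Ccl4 was, and 4 were closer to Ccl4 than Ccl3 was. The genes most like Xcl1 were Itm2a at 0.16 and Aplf at 0.16, and those most like Ccl1 were Zmat3 at 0.15 and Hilpda at 0.16. B9d2 and Ppp3ca, which encodes a catalytic subunit of the phosphatase calcineurin, were nearest to Ccl3, both at 0.06, and Hsd17b10 at 0.05 and Ube2b at 0.06 nearest to Ccl4. Avpi1 at 0.08 and Fbxo25 at 0.09 were nearest to Ccl5, and Ppp2r5a at 0.10 and Med21 at 0.14 to Ccl9. Cdkn1b, the cell cycle inhibitor p27Kip1, at 0.07 and Pde3b at 0.09 were nearest to Cxcl10.

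**Figure D4:**
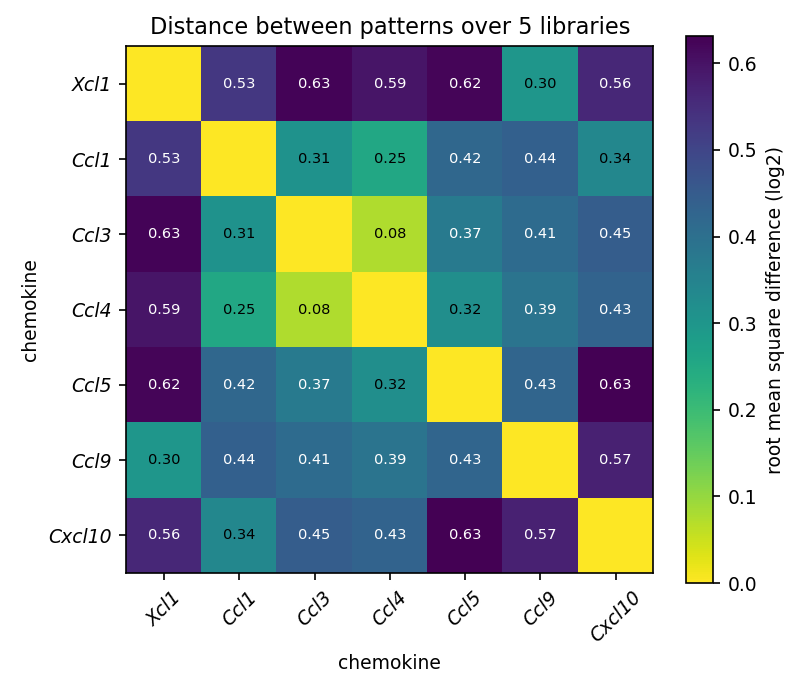
Root mean square difference between the patterns of each pair of chemokines over the 5 libraries, in log2 units, from light (alike) to dark (unlike). The Ccl3 and Ccl4 cell stands out at 0.08, and Xcl1 is at 0.53 or more from all but Ccl9.

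In CPM not divided by length, the remaining chemokine ligands were scarce next to the 6 members other than Cxcl10, whose level some of them approached. Per kb, Ccl9 lay near Cxcl10, at 19.8 against 15.6 in controls. No level per kb is given for the remaining ligands. In C1 Ccl8 stood at 16.5 CPM, above Cxcl10 at 14.4 CPM. Of 31 listed, 12 had no count in any library and 11 were tested, of which 5 had a fold change above 0 and 6 below, with a median of -0.21 against -0.015 for all genes. None passed the test. The highest were Ccl8, with a mean over the 5 libraries of 8.66 CPM, Ccl6 at 8.15, Ccl7 at 5.37, Cxcl9 at 4.32, Cxcl16 at 3.87 and Ccl2 at 2.76 CPM. Pf4, Cxcl13, Ccl25 and Ccl12 averaged 1.59 to 2.00 CPM. Cxcl9, an interferon-induced CXCR3 ligand like Cxcl10, stood at 6.79, 2.71 and 2.15 CPM in the controls and at 5.28 and 4.69 CPM after anti-PD-L1. Its highest value was in C1, where Cxcl10 was lowest among the controls. P1 and P2 were both below every control for Cxcl13, Ccl12 and Ccl27a, 3 of the 11, against 9.58% of all genes, at 0 to 43 counts per library. Ccl27a has near-identical copies in the mouse genome, so its count is uncertain. Ccl6, which lies between Ccl9 and Ccl3 on chromosome 11, stood at 11.8, 7.66 and 4.29 CPM in the controls and at 10.8 and 6.26 CPM after anti-PD-L1.

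Of 8 listed receptor genes of the members, 6 were tested in the same cells and none passed. The receptors of Xcl1, Cxcl10 and Ccl1 are described here, and then Ccr1 and Ccr3. The list holds a gene with no value reported here, so no list median is given. Xcr1, the Xcl1 receptor, stood at 5.36, 4.57 and 5.13 CPM in the controls and at 19.5 and 7.90 CPM after anti-PD-L1. For Xcr1 both P1 and P2 were above every control, 1 of the 6 receptors tested, where 7.74% of all genes did so. Its log2 fold change was 1.44 ± 0.50 (SE), at an edgeR adjusted p of 0.9999. The receptors that follow are named after their values were seen. Cxcr3, the receptor of Cxcl10, had P1 and P2 below every control, at 173 and 209 CPM against 259 to 263 CPM. That was 1 of the 6 tested, where 9.58% of all genes had both below. Ccr8, the receptor of Ccl1, stood at 35.9, 25.7 and 19.3 CPM in the controls and at 14.0 and 41.3 CPM after anti-PD-L1, lowest and highest in the 2 anti-PD-L1 libraries. Ccr1 stood at 1.52, 3.92 and 4.44 CPM in the controls and at 14.7 and 3.20 CPM after anti-PD-L1. Ccr3 stood at 0, 0.093 and 1.38 CPM in the controls and at 3.43 and 0.819 CPM after anti-PD-L1. For both, P1 was highest and P2 lay inside the control range. Their log2 fold changes were 1.44 ± 0.77 (SE) and 2.06 ± 1.59 (SE), on few counts. Among the dendritic cell markers, which hold Xcr1 itself, the sum was lowest in P1, at 127.8 CPM. The natural killer cell markers had their highest sum there, at 279.9 CPM, and their part in the receptor levels was not tested. Xcl1 was likewise lowest in P1, and Ccl1 highest in P2.

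Several of these chemokines are induced when the T cell receptor is engaged. The 30 listed activation-induced genes, such as Il2 and the NF-kappaB subunit gene Rel, had 14 fold changes above 0 and 16 below, with a median of -0.012, and none passed. The median member lay between -0.065 and 0.031 of the control mean in the 3 controls, at -0.73 in P1 and at 0.47 in P2. Of the 7 chemokines, 5 were lower in P1 than in P2, Ccl5 only slightly. The median over all genes tested was at -0.041 in P1 and 0.044 in P2. The share of all genes lower in P1 is not given. Xcl1 was at -1.09 and 0.28 from its control mean on the log2 scale, Ccl1 at 0.18 and 0.83, Cxcl10 at -0.29 and 0.68, Ccl9 at -0.49 and -0.03, and Ccl5 at 0.22 and 0.29. Ccl3, at 0.32 and 0.11, and Ccl4, at 0.30 and 0.26, were higher in P1. Il2 stood at 11.9, 27.4 and 14.6 CPM in the controls and at 2.97 and 12.9 CPM after anti-PD-L1. Rel stood at 66.8 to 69.1 CPM in the controls and at 61.9 and 138 CPM after anti-PD-L1. The part of activation state in the chemokine levels was not tested.

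Of 24 interferon-induced genes, 22 were tested and none passed, with 14 fold changes above 0 and a median of 0.17. P1 and P2 were both above every control for 2, Rsad2 and Isg15, and both below for 4, Iigp1, Gbp2, Gbp5 and Oasl2, of the 22, against 7.74% and 9.58% of all genes. Usp18, a negative regulator of interferon signalling, stood at 58.3 to 79.5 CPM in the controls and at 230 and 71.0 CPM after anti-PD-L1. Iigp1, an interferon-inducible GTPase, stood at 84.8, 30.5 and 29.4 CPM in the controls and at 24.3 and 16.1 CPM after anti-PD-L1. The list median was 0.56 in P1 and 0.01 in P2, while Cxcl10 was at -0.29 and 0.68. The list median and Cxcl10 thus differed in order between the libraries, but not every member of the list did. Irf1, at 187 to 233 CPM in the controls and 90.9 and 298.5 CPM after anti-PD-L1, and Socs1, at 33.1 to 40.2 CPM and 23.2 and 48.9 CPM, were lowest in P1 and highest in P2 like Cxcl10, 2 of the 22. These 2 are named after their values were seen, and no share of all genes with that order is given. Cxcl10 itself was lowest in P1 only narrowly, at 13.7 CPM against 14.4 CPM in C1. That gap is within the counting error, so its lowest place is not resolved.

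Among 12 transcription factors tied to chemokine genes, 7 had a fold change above 0 and 5 below, with a median of 0.016, and none passed. P1 and P2 were both above every control for 1 of the 12, Klf13, where 7.74% of all genes did so, a share near that background. Klf13 stood at 213 to 236 CPM in the controls and at 254 and 261 CPM after anti-PD-L1, and its log2 fold change was 0.19 ± 0.22 (SE). The 2 of smallest p were Irf7, with 0.61 ± 0.31 (SE), and Runx3, with 0.38 ± 0.26 (SE).

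**Figure D5:**
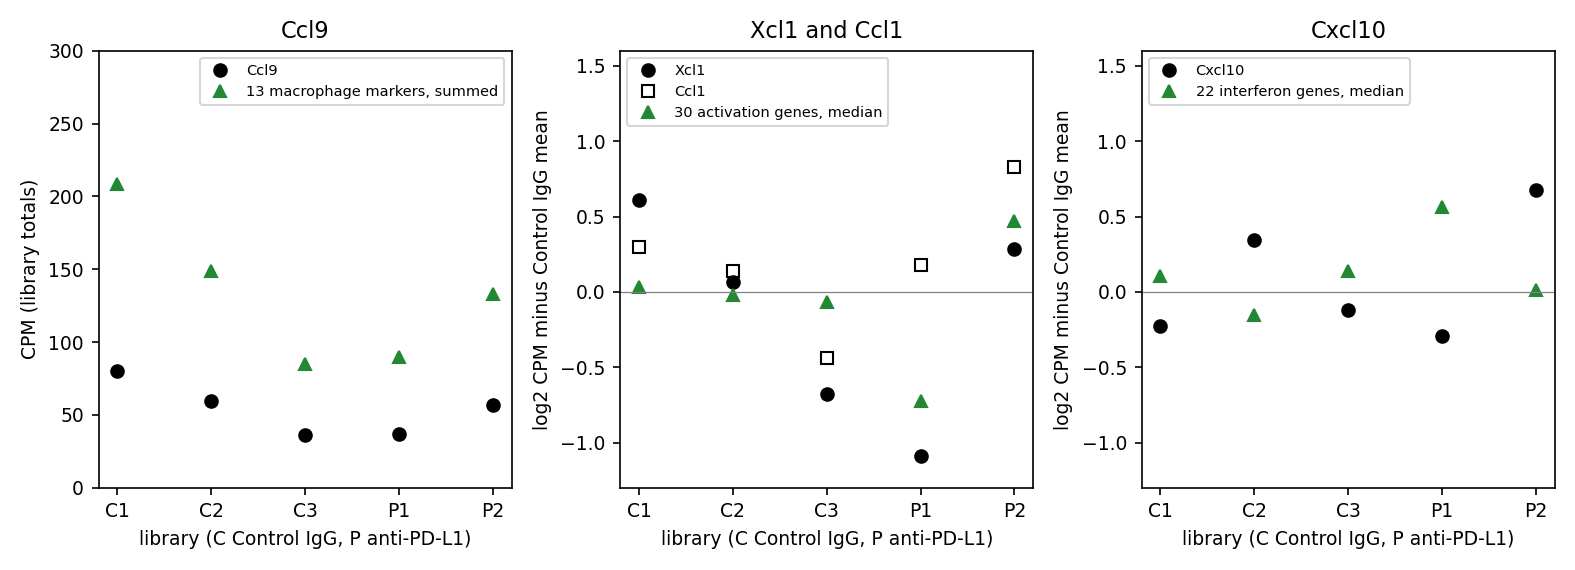
Left, CPM over library totals of Ccl9 (circles) and the summed macrophage and monocyte markers (triangles) in C1 to C3 and P1 and P2. Middle and right, log2 CPM minus the Control IgG mean of Xcl1, Ccl1 and Cxcl10 beside the median of the 30 activation-induced and 22 interferon-induced genes; Cxcl10 is at -0.29 in P1, where the interferon list is at 0.56.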

How the data were processed

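The authors deposited raw counts of reads for each gene symbol. Per the submitters' processing notes, TopHat and HTSeq were used and the build was mm10. Their versions, the annotation and whether strand was used are details not given in the sources used here. Per the labels' protocols, poly(A) RNA of 5000 to 30000 sorted cells was amplified by a modified Smart-seq2 protocol (8 and then 12 PCR cycles), so PCR copies count as separate reads and counting errors cover counting only. Totals and tests omit the 5 counter lines. Unassigned reads (no feature) were 7.46% to 15.2% of counts. The line for reads with several alignments reads 0 in each library.

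Genes were tested with edgeR 4.0.16 (R 4.3.3), two-sided, by the quasi-likelihood test with TMM factors and filterByExpr (minimum count 10, minimum total 15). P-values were adjusted by Benjamini-Hochberg over 11299 genes, with a threshold of 0.05. The standard error is the fold change divided by the square root of F. Alternatives used DESeq2 1.42.0, limma 3.58.1 (voom), other scaling, no filter, a replicate block and libraries left out. The edgeR script was run on simulated data with large changes, and had to pass only at a spread set below that measured here. That run does not show what these data could detect. With 3 libraries against 2, an exact permutation test could not go below 0.1, so none is given. No 2 libraries were copies of each other.

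Members and gene lists were chosen with earlier results of these data known. Besides the members, the text names the 2 genes of smallest p per list, other chemokines averaging at least 1 CPM, the 2 genes of most similar pattern per member, and abundant markers. For 1 gene the rule would name, no value is reported here. Genes named for having P1 and P2 on 1 side of all controls, Ccr8, Ccr1, Ccr3, Irf1, Socs1, Ncr1 and the overlapping genes were chosen after their values were seen. Ly6g and Ighm were not matched among the marker symbols.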

Additional observations from a re-analysis of the deposited data

How the results depend on the processing

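Of 42 fold changes of members under another tool, scaling, filter or the replicate block, 42 kept their direction, and no adjusted p was under 0.819. Of 42 with libraries left out, 35 kept it, 7 reversed, and no adjusted p was under 0.310. The reversed values of Xcl1 were 0.53 without both libraries numbered 1 and 0.01 and 0.19 without Control IgG replicate 1 or anti-PD-L1 replicate 1, and those of Ccl9 were 0.26 without both and 0.059 without Control IgG replicate 1. Ccl5 reversed to -0.066 without Control IgG replicate 2, and Cxcl10 to -0.29 without anti-PD-L1 replicate 2. The cause was not tested. With 1 library left out at a time, Xcl1 ran from -1.15 to 0.19, Ccl1 from 0.17 to 0.79, Ccl3 from 0.04 to 0.33, Ccl4 from 0.10 to 0.41, Ccl5 from -0.066 to 0.59, Ccl9 from -0.63 to 0.059 and Cxcl10 from -0.29 to 0.66. Where 1 anti-PD-L1 library is left, it is assumed to vary like the controls.

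Over all genes, the main count of 0 became 4 in DESeq2, 5 without a low-count filter and 1 without both libraries numbered 1, and stayed 0 with any 1 library left out. Members with every anti-PD-L1 library above every control went from 0, where 7.74% of all genes did so, to 5 without both libraries numbered 1. There P2 alone faced C2 and C3, and 32.1% of all genes had P2 above both. The count went to 1 (Ccl4) by library totals only and to 1 by upper quartile factors. With these scalings 6.94% and 9.18% of all genes had both above every control. These alternatives were chosen after seeing the data. The replicate numbers are not said to mark pairs. Deviations from group means correlated across genes at 0.33 for the libraries numbered 1 and at 0.37 for those numbered 2. The deviations of P1 and P2 from their own mean are equal and opposite, so these values are not independent. For the same reason C1 with P2 and C2 with P1 have values of the same sizes with the opposite sign. All of these values rest on the difference between P1 and P2 alone, so they cannot decide whether the numbers mark pairs. With the replicate block 0 genes passed. Under the block the fold changes were -0.74 for Xcl1, 0.28 for Ccl1, 0.04 for Ccl3, 0.11 for Ccl4, 0.16 for Ccl5, -0.61 for Ccl9 and 0.14 for Cxcl10. A median standard error of 0.38 over tested genes limits what could be detected.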
